A study of Mus musculus with 4 samples.

Results

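The interferon response genes described here were 49 mouse genes that sense, relay or carry out the response to interferons, chosen by symbol from the 23282 gene rows of a gastrocnemius muscle dataset. They were sorted by function into 7 groups: 4 receptor subunits, 8 transcription factors, 5 nucleic acid sensors or regulators of them, 19 antiviral effectors, 3 IFITM proteins, 7 GTPases of the GBP and IRG families, and 3 genes of the PARP9-DTX3L complex and PARP14. The rule itself used no measured value, only the symbols, but the members were chosen with earlier results of these data known.

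Interferons are cytokines that a cell releases when it meets viral nucleic acid or, for interferon gamma, when T and NK cells are activated. They bind receptors at the cell surface (IFNAR for type I interferons, IFNGR for interferon gamma), the attached Janus kinases activate STAT proteins, and a complex that contains STAT2 and IRF9 binds the interferon-stimulated response element in promoters, while STAT dimers bind the gamma-activated site. The genes that follow are expressed at a low basal level in many tissues, skeletal muscle included, and encode proteins that block viral replication, attack vacuoles around intracellular microbes or raise sensing capacity further.

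The study crossed exercise (E) with a tumor (T) in male CDF1 mice, for which the labels give an age of postnatal day 28. The paper gives this age for the mice at purchase and took tissue at the end of the experiment, so the sequenced muscle was older. The tumor was raised by injecting CT26 cells, a murine colorectal cancer line, through the tail vein, which spreads the cells through the body, and exercise was high-intensity running on a motorized treadmill. The groups were normal control (neither, E-T-), normal exercise (exercise and no tumor, E+T-), cancer control (tumor and no exercise, E-T+) and cancer exercise (both, E+T+), and 1 library of right gastrocnemius muscle was sequenced for each. The design text names 10 mice per group, whereas the results text speaks of a representative mouse of each group, so that a library may come from 1 animal or from a pool.

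RNA was read from the 3′ end of polyadenylated transcripts (QuantSeq), so that counts do not scale with gene length. The deposited value of a gene is the log2 of its normalized read count plus 1, and the whole reads behind it were rebuilt from the steps between low values. The libraries held 10646578 to 13228470 reads. With 1 library per group no difference has a replicate check, no p-value is given, and every interval below is a 95% Clopper-Pearson interval of read sampling turned into a log2 ratio. The intervals cover counting error only and not variation among animals. No molecular identifiers are mentioned for these reads, so copies of 1 molecule may count as separate reads. The intervals may therefore be too narrow even for counting error. A difference is that of the deposited log2 values, which understates the fold of low genes, and a gene was counted as higher or lower when it differed at least 2-fold and 1 or both of the libraries compared had 4 or more normalized reads. In whole tissue, fewer cells of a type and less RNA per cell cannot be told apart.

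All 10 muscle fibre markers had reads in every library. The cancer control library stood apart: of 10 epidermis markers, 9 had reads there, and Lor, a cornified envelope protein, had 199 reads, Flg2 148, Dsp 133 and Lce1m 71, against 0 to 4 reads of each in the other libraries. The summed level of the epidermis list, in CPM (reads of the list scaled to a common library size), was 75.1 CPM in cancer control and 7.53 to 17.4 elsewhere. How far this library differs for reasons other than the tumor was not tested, and tumor differences that rest on it are given beside the tumor difference among exercised mice, which does not use it. The exercised pair differed in red cell markers, which summed to 4573 CPM in normal exercise and 43930 in cancer exercise. The exercise comparison of tumor-bearing mice has no value without cancer control.

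Promoter windows of 7 members are shown, chosen after their values were seen among members with a match outside annotated exons, because their genes carried large differences or are well known targets of the pathway. Sequences were taken from RefSeq (GRCm38.p6, the build that mm10 names), whose table of promoters held 41 of the 49 members. Zbp1, Mx1, Mx2, Oas2, Ifi27, Iigp1, Parp9 and Parp14 were not in the table. Each line runs 5′ to 3′ on the strand of the gene, lies before the start site and outside annotated exons, and has in capitals the matches to the core of the interferon-stimulated response element, GAAA, any 2 bases and GAAA again (TTTC, any 2 bases and TTTC where it lies on the other strand), with overlapping matches joined. The windows are Igtp at chr11:58199491-58199551 (plus strand), Irgm2 at chr11:58214882-58214942 (plus), Gbp5 at chr3:142496749-142496798 (plus), Ifit1 at chr19:34640765-34640833 (plus), Ifit3 at chr19:34583353-34583436 (plus), Isg15 at chr4:156200855-156200916 (minus) and Rsad2 at chr12:26456543-26456592 (minus).
Igtp: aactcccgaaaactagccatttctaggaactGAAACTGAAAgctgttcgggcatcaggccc
Irgm2: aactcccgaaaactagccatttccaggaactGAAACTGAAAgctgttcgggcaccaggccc
Gbp5: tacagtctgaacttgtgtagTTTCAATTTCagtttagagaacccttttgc
Ifit1: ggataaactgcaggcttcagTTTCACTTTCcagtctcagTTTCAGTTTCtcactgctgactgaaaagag
Ifit3: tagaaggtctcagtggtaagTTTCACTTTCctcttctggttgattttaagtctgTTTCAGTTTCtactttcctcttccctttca
Isg15: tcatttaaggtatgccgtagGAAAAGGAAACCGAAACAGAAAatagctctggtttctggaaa
Rsad2: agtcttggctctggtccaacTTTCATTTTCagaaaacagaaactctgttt

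For Irgm2 and Ifit3, the bases after the start site in the RefSeq table did not match the start of an annotated transcript. Their position before a start site is therefore less certain. The windows of Igtp and Irgm2, neighbouring GTPase genes on chromosome 11, were identical in 59 of 61 bases. Ifit1 and Ifit3 each held the element at 2 places, and Isg15 held overlapping matches in 1 run. Over promoters of 250 bases before to 50 after a start site, the core was present on either strand in 19 of the 41 members (46.3%) and in 3.99% of all 27025 genes of the table. The gamma-activated site TTCNNNGAA, which reads the same on both strands, was present in 15 members (36.6%) and in 9.55% of all genes. Both were found in 7 members, Irf2, Oas1a, Bst2, Ifitm3, Gbp5, Igtp and Irgm2, and in 0.614% of all genes, while 14 members held neither. By role, the response element core was found in all 6 GBP and IRG genes of the table, 7 of 15 effectors, 2 of 3 IFITM genes, 2 of 8 transcription factors, 2 of 4 sensors and 0 of 4 receptors. A match is a description of letters and not evidence of a bound site.

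Without exercise, the tumor-bearing library had lower levels of most interferon genes. Of the 47 members that reached the minimum, 25 were at least 2-fold lower in cancer control than in normal control (53.2%, where 24.2% of all 14818 genes tested were), and 3 were at least 2-fold higher (6.38%, where 20.9% of all genes were). The median log2 difference was -1.12 over the members and -0.04 over all genes, and at any size 37 members were lower (all genes, 51.4%) and 10 higher (all genes, 48.6%). The lower genes included 6 of 7 GBP and IRG GTPases, 11 of 17 tested effectors and all 3 genes of the PARP group, and the 3 higher genes were Ifitm1, Ifitm2 and Oasl1. Mx1, Oas3 and Cmpk2 reached the minimum only through normal control, and with a minimum of 4 in both libraries 22 of 44 members were lower, where 19.2% of all genes were. For 24 of the 25 lower genes, all but Oas3, the counting interval lay below 0 (all genes, 22%). With cancer exercise in place of cancer control, 11 members were lower (all genes, 18.2%) and 7 higher (all genes, 13.9%) than in normal control.

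Among exercised mice the tumor difference pointed the same way and had a smaller median. Cancer exercise against normal exercise had 10 of 47 members at least 2-fold lower (21.3%, where 16.3% of 14470 genes were) and 4 higher (8.51%, where 13.9% of all genes were), with a median of -0.48 against -0.03 over all genes. The 10 lower genes were Ifit2, Ifit3, Oas2, Oasl1, Oasl2, Cmpk2, Gbp2, Gbp5, Igtp and Iigp1, and the 4 higher genes were Isg20, Rsad2, Ifitm1 and Ifitm2. The intervals of Oas2 and Oasl1 included 0, which left 8 members lower with an interval below 0 (all genes, 14%). Oasl1 reached the minimum only through normal exercise and so had to differ. With a minimum of 4 in both libraries 9 of 46 members were lower, where 11.4% of all genes were. The 2 tumor comparisons share no library. Of the 25 members lower without exercise, 7 were at least 2-fold lower with exercise as well, 28% of the first list and 70% of the second, where the shares over all genes were 31.9% and 48.5%. At any size, 20 of the 25 were lower with exercise, where 70.7% of all genes lower without exercise were.

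In tumor-free mice exercise was followed by few differences of 2-fold or more in these genes. Zbp1, Mx2, Oas2 and Ifitm1 were higher with exercise (4 of 49, 8.16%, where 9.44% of 14518 genes were), Mx1 and Oas3 were lower (2 of 49, 4.08%, where 12.1% of all genes were), and the median was -0.04 against -0.01 over all genes. Mx1, Mx2, Oas2 and Oas3 reached the minimum only through the library in which they were high and so had to differ.

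In tumor-bearing mice, the exercised library had the higher levels. Of 47 members, 13 were at least 2-fold higher with exercise (27.7%, where 15.6% of 14491 genes were), namely Stat2, Zbp1, Isg20, Mx2, Oas2, Rsad2, Cmpk2, Ifi35, Ifi44, Igtp, Irgm1, Irgm2 and Iigp1, and 2 were lower, Ifit3 and Oasl1 (4.26%, where 15.1% of all genes were). The median was 0.50, or 0.43 with genes at 0 reads set to their bound, against 0.005 over all genes, and at any size 34 members were higher (all genes, 50.2%) and 13 lower (all genes, 49.7%). The intervals of Mx2 and Oas2 included 0, which left 11 members higher with an interval above 0 (all genes, 13%). Mx2, Oas2 and Cmpk2 reached the minimum only through cancer exercise and so had to differ, and with a minimum of 4 in both libraries 10 of 43 members were higher, where 11.1% of all genes were. Oasl1 reached the minimum only through cancer control and so had to differ as well. With the minimum in both libraries 1 of 43 members was lower, where 9.76% of all genes were. This comparison uses cancer control, the library with epidermal reads, and it shares that library with the tumor comparison without exercise, so that a low value in cancer control enters both.

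**Figure D1:**
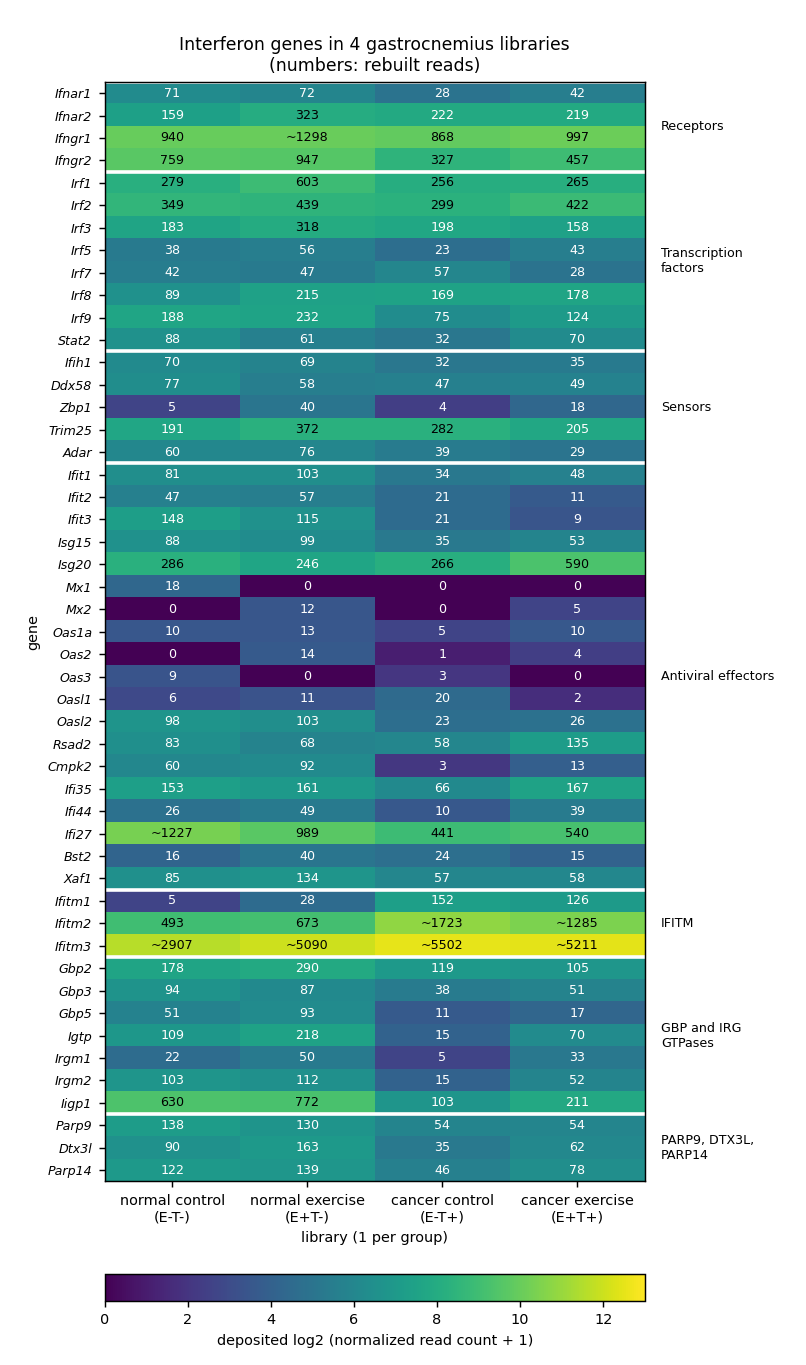
Deposited log2 (normalized read count + 1) of the 49 interferon genes in the 4 gastrocnemius libraries, in rows by function, with rebuilt reads printed in each cell (a mark before a number means that the read count is approximate). Cancer control is darker than normal control in most rows of the GTPase and PARP groups, and Ifitm1, at 5 reads in normal control, has 152 in cancer control.

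**Figure D2:**
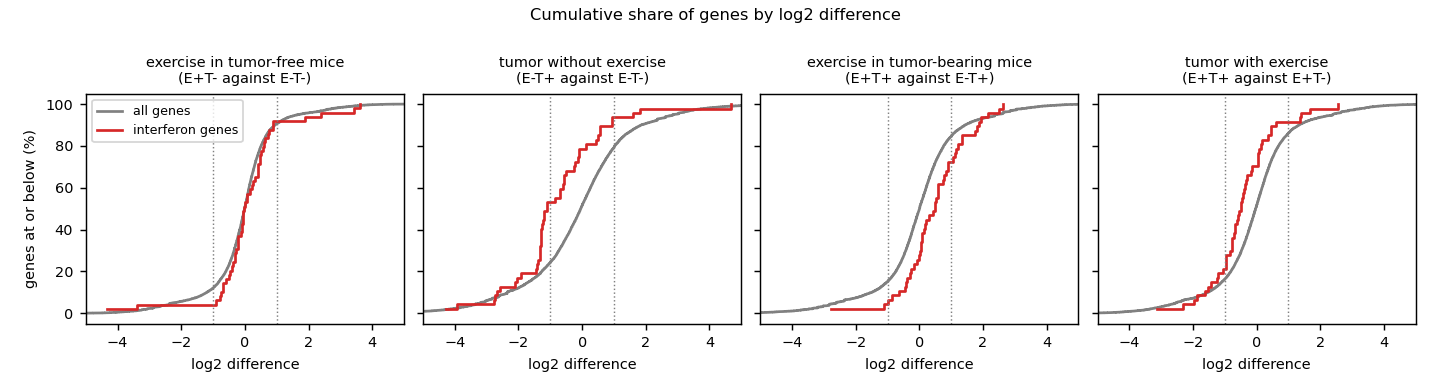
Cumulative share of genes, in percent, at or below each log2 difference in the 4 comparisons, for all genes reaching the minimum (grey) and for the interferon genes (red). In the tumor comparison without exercise the red curve has passed 53.2% at a log2 difference of -1 and the grey curve 24.2%; in the exercise comparison of tumor-bearing mice the red curve runs below the grey over most of the range.

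Levels below are normalized read counts, given with the tumor-free libraries first, normal control before normal exercise, and then cancer control before cancer exercise. Cancer control was the lowest of the libraries for 28 of the 49 members (57.1%), against 33.1% of the 15485 genes with 4 or more normalized reads in any library. Normal control was the highest for 20 members (40.8%, against 27.1%). The median level of the members was 93.6, 83.6, 40.7 and 57.4, and that of the 15485 genes 114, 112, 101 and 105.

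The receptor subunits decide which cells can answer an interferon. Ifnar1, a subunit of the type I receptor, had 75.5, 58.4, 30.02 and 45.5 normalized reads, with a tumor difference without exercise of -1.30 (interval -2.02 to -0.68). Ifngr2, the signalling subunit of the interferon gamma receptor, had 807, 768, 350 and 495, a difference of -1.20 (-1.40 to -1.02). Both were lowest in cancer control, and in cancer exercise they lay between cancer control and the tumor-free libraries. The partner subunits did not share this: Ifnar2 had 169, 262, 238 and 237, lowest in normal control, and Ifngr1, which binds interferon gamma, had 1000, 1053, 930 and 1080 and stayed within 0.22 on the log2 scale in every comparison. With exercise the tumor differences of the 4 receptors were between -0.63 and 0.04 and none reached 2-fold.

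Of the transcription factors, Irf9 and Stat2, which act in the type I complex, were lower in cancer control. Irf9, the DNA-binding subunit, had 200, 188, 80.4 and 134 normalized reads, and its tumor difference was -1.30 without exercise (-1.72 to -0.92) and -0.48 with it. Stat2 had 93.6, 49.4, 34.3 and 75.8: it was lower in both normal exercise and cancer control than in normal control, at -0.91 (-1.42 to -0.43) and -1.42 (-2.08 to -0.85), and in cancer exercise it exceeded cancer control by 1.12 (0.52 to 1.80). Its tumor difference with exercise was 0.61 (0.10 to 1.14), opposite in sign to that without.

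The other IRF genes differed less than 2-fold in every comparison. Irf1, an early interferon gamma target, was highest in normal exercise (297, 489, 274 and 287). Irf8, a factor of macrophage and dendritic cell lineages, was lowest in normal control (94.7, 174, 181 and 193), with a tumor difference of 0.93 (0.56 to 1.32) without exercise and 0.14 with it. Irf7, the amplifier of type I interferon production, was highest in cancer control (44.7, 38.0, 61.0 and 30.4), with a difference of -0.98 (-1.72 to -0.33) from cancer control to cancer exercise. Irf2, a repressor of the Irf1 sites, had 371, 356, 320 and 457, Irf3, the factor activated by sensing, had 195, 258, 212 and 171, and Irf5, a factor of inflammatory macrophages, had 40.4, 45.4, 24.7 and 46.6. Irf1, Irf2 and Irf5 were lowest in cancer control, where the intervals of all 3 against normal control included 0.

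Of the 5 sensors of nucleic acid or their regulators, 4 were lower and 1 higher with the tumor, at any size, in each tumor comparison. The higher gene was Trim25 without exercise and Ddx58 with it. The medians were -0.60 without exercise and -0.55 with it, against -0.04 and -0.03 over all genes. Ifih1, the long double-stranded RNA sensor MDA5, had 74.4, 56.0, 34.3 and 37.9 normalized reads, a tumor difference of -1.09 (-1.77 to -0.50) without exercise and -0.55 (-1.19 to 0.05) with it. Ddx58, the RNA sensor RIG-I, had 81.9, 47.0, 50.3 and 53.1, highest in normal control. Zbp1, a sensor of Z-form nucleic acid that can start necroptosis, had 5.36, 32.7, 4.34 and 19.5: it was higher in the exercised library by 2.40 (1.27 to 4.31) in tumor-free mice and by 1.94 (0.58 to 4.21) in tumor-bearing mice. These 2 exercise comparisons share no library, and the values rest on 5, 40, 4 and 18 reads. Trim25, the ubiquitin ligase that activates RIG-I, had 203, 302, 302 and 222, and Adar, the RNA editing enzyme that limits sensing of self RNA, had 63.8, 61.6, 41.8 and 31.5.

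Among the effectors, the IFIT proteins bind foreign RNA and block its translation, and Ifit3 had the largest tumor difference with exercise of all members. Ifit3 had 157, 93.3, 22.6 and 9.82 normalized reads, with tumor differences of -2.75 (-3.54 to -2.14) without exercise and -3.12 (-4.42 to -2.28) with it. Ifit2 had 49.95, 46.3, 22.5 and 11.98, with differences of -1.12 (-1.97 to -0.38) and -1.87 (-3.04 to -1.01). In these genes both tumor-bearing libraries were low. Cancer exercise was the lowest, by -1.12 (-2.52 to -0.02) against cancer control for Ifit3 and by -0.86 (-2.12 to 0.20) for Ifit2, an interval that includes 0. Ifit1 had 86.1, 83.6, 36.5 and 52.0, a difference of -1.22 (-1.86 to -0.65) without exercise and -0.67 (-1.21 to -0.18) with it. Ifit3b, a near copy of Ifit3 that is not one of the 49, had 76, 63, 0 and 2 reads, at least 25.2-fold lower in cancer control than in normal control, and the division of reads between these copies depends on how the authors counted reads that match both.

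Cmpk2, a mitochondrial nucleotide kinase beside Rsad2 in the genome, had 63.8, 74.9, 3.27 and 14.2 normalized reads, from 60, 92, 3 and 13 reads. Its tumor differences were -3.92 (-6.63 to -2.70) without exercise and -2.32 (-3.37 to -1.56) with it, and cancer exercise was higher than cancer control by 1.83 (0.27 to 4.58). Rsad2 itself, which encodes viperin, gave another order: 88.3, 55.0, 62.2 and 146, highest in cancer exercise, by 1.22 (0.78 to 1.71) against cancer control and by 1.39 (0.98 to 1.85) against normal exercise. Isg20, an exonuclease that degrades viral RNA, shared that order with 304, 199, 285 and 639, by 1.16 (0.95 to 1.38) and 1.68 (1.46 to 1.90). Rsad2 and Isg20 were the effectors at least 2-fold higher with the tumor in exercised mice, and neither reached 2-fold between cancer control and normal control.

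Isg15, a ubiquitin-like modifier, had 93.6, 80.3, 37.5 and 57.4 normalized reads, a tumor difference of -1.29 (-1.93 to -0.74) without exercise and -0.48 (-0.99 to 0.01) with it. Ifi27, a membrane protein of organelles, was the most abundant effector with 1305, 802, 472 and 585, tumor differences of -1.46 (-1.63 to -1.31) without and -0.46 (-0.61 to -0.30) with exercise, and its level in normal exercise was also below that of normal control, a difference of -0.70 (-0.82 to -0.58). Oasl2, an OAS-like protein with ubiquitin-like domains, had 104, 83.6, 24.7 and 28.2, with differences of -2.03 (-2.80 to -1.42) without and -1.53 (-2.25 to -0.94) with exercise. In Isg15 and Ifi27 cancer exercise lay between cancer control and both tumor-free libraries, whereas for Oasl2 both tumor-bearing libraries were at one level.

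Ifi35 had 163, 131, 70.7 and 181 normalized reads, and Ifi44, a cytoplasmic protein induced by type I interferon, had 27.7, 39.8, 10.8 and 42.2. Both were at least 2-fold lower in cancer control than in normal control, at -1.19 (-1.64 to -0.78) and -1.28 (-2.58 to -0.27), and cancer exercise exceeded cancer control, at 1.34 (0.94 to 1.79) and 1.88 (0.95 to 3.15). Against normal exercise, cancer exercise differed by 0.47 (0.15 to 0.79) for Ifi35 and by 0.08 (-0.56 to 0.72) for Ifi44. Xaf1, a pro-apoptotic factor, had 90.4, 109, 61.1 and 62.9, and Bst2, the virion-retaining protein tetherin, had 17.04, 32.5, 25.7 and 16.3. Neither reached 2-fold in any comparison.

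The Mx and Oas genes were near the limit of detection. Mx1, a GTPase that blocks viral ribonucleoproteins, had 18 reads in normal control and 0 in each other library, at least 7.87-fold lower in normal exercise and at least 5.96-fold lower in cancer control when the floor of 3 reads per library is used. Mx2 had 0, 12, 0 and 5 reads and Oas2 had 0, 14, 1 and 4 reads, with normal exercise at least 3.05-fold and at least 3.56-fold above normal control. Oas3 had 9, 0, 3 and 0 reads, with normal exercise at least 3.94-fold below normal control, and Oas1a had 10, 13, 5 and 10. The OAS enzymes make the 2′-5′ oligoadenylate that activates RNase L. Mx1 and Mx2 are related genes with reads in different libraries. Oasl1, an inhibitor of Irf7 translation, had 6, 11, 20 and 2 reads and is the member with tumor differences beyond 2-fold in opposite directions: 1.59 (0.38 to 3.35) without exercise and -1.62 (-5.26 to 0.15) with it.

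The IFITM proteins, which stop enveloped viruses at the membrane, were the only group with a median above 0 in both tumor comparisons. Members of other groups were higher too, such as Irf8 and Oasl1 without exercise and Isg20 and Rsad2 with it. In all, 10 members were higher without exercise and 14 with it, at any size. Ifitm1 had 5.37, 22.5, 163 and 136 normalized reads: the tumor differences were 4.68 (3.68 to 6.58) without exercise and 2.54 (1.99 to 3.23) with it, and exercise alone gave 1.89 (0.70 to 3.82). Ifitm2 had 524, 545, 1845 and 1392, with tumor differences of 1.81 (1.67 to 1.96) and 1.35 (1.22 to 1.49). Ifitm3, the most abundant of the 49, had 3092, 4126, 5893 and 5645, with tumor differences of 0.93 (0.86 to 0.996) and 0.45 (0.40 to 0.51). All 3 were higher in both tumor-bearing libraries than in either tumor-free one, and in none did cancer exercise exceed cancer control. Because of their abundance they decide the summed level: the 49 members together had 1015, 1084, 1105 and 1169 CPM, but without the 3 Ifitm genes 700, 676, 418 and 546. Ifitm genes are close copies, and assignment of reads among them could not be checked.

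Neutrophil markers were higher in the same libraries as the Ifitm genes. The summed level of the 12 neutrophil markers was 9.53 and 17.97 CPM in normal control and normal exercise and 239 and 179 in cancer control and cancer exercise, led by S100a8 with 16, 88, 1918 and 885 reads. Elane had 0 reads in every library, and 3 markers were at 0 in each tumor-bearing library against 6 and 5 in the tumor-free ones. The 13 macrophage and monocyte markers summed to 383, 385, 640 and 579 CPM, but did not share 1 direction. At any size 7 of the 13 were higher and 6 lower with the tumor without exercise, and 8 were higher and 5 lower among exercised mice. Cd68 had 87, 117, 957 and 295 reads and Ccr2 74, 126, 19 and 73. The part of these cells in the Ifitm levels was not tested.

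The GBP and IRG GTPases, which are induced mainly by interferon gamma and attack the vacuoles of intracellular microbes, were lower in each tumor-bearing library than in its tumor-free counterpart in all 7 members, at any size. Together they had 110, 114, 28.5 and 50.8 CPM. Iigp1, an IRG that loads onto parasite vacuoles and the most abundant of them, had 670, 626, 110 and 229 normalized reads, with tumor differences of -2.59 (-2.92 to -2.30) without exercise and -1.45 (-1.68 to -1.23) with it, and cancer exercise exceeded cancer control by 1.04 (0.70 to 1.41). Igtp (also Irgm3) had 116, 177, 16.1 and 75.9, with tumor differences of -2.77 (-3.74 to -2.07) and -1.21 (-1.63 to -0.83) and an exercise difference in tumor-bearing mice of 2.17 (1.42 to 3.15). For both, the tumor-free libraries were highest, cancer control was lowest and cancer exercise lay between.

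Irgm2, whose promoter window matches that of Igtp, had 110, 90.9, 16.1 and 56.4 normalized reads, differing by -2.69 (-3.66 to -1.98) without exercise and by -0.68 (-1.19 to -0.20) with it. Irgm1, which like Igtp and Irgm2 keeps the other IRG proteins inactive on the host's own membranes, had 23.4, 40.7, 5.41 and 35.7, with -1.93 (-3.88 to -0.69) without exercise and -0.18 (-0.86 to 0.48) with it. In tumor-bearing mice the exercised library was higher by 1.74 (0.96 to 2.75) for Irgm2 and by 2.52 (1.37 to 4.45) for Irgm1. The 4 IRG genes thus had the same order of tumor-bearing libraries.

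The GBP genes, large GTPases of the same response, were less alike. Gbp5, which promotes inflammasome assembly, had 54.2, 75.6, 11.8 and 18.5 normalized reads and was low in both tumor-bearing libraries, at -2.10 (-3.29 to -1.25) and -1.98 (-2.87 to -1.28). Gbp3 had 99.9, 70.5, 40.7 and 55.3, at -1.27 (-1.88 to -0.74) without and -0.35 (-0.88 to 0.16) with exercise. Gbp2 had 189, 235, 127 and 114, at -0.57 (-0.92 to -0.23) without and -1.04 (-1.38 to -0.72) with exercise. None of the GBP genes reached 2-fold between cancer exercise and cancer control, where their values were 0.60, 0.43 and -0.16 in this order.

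**Figure D3:**
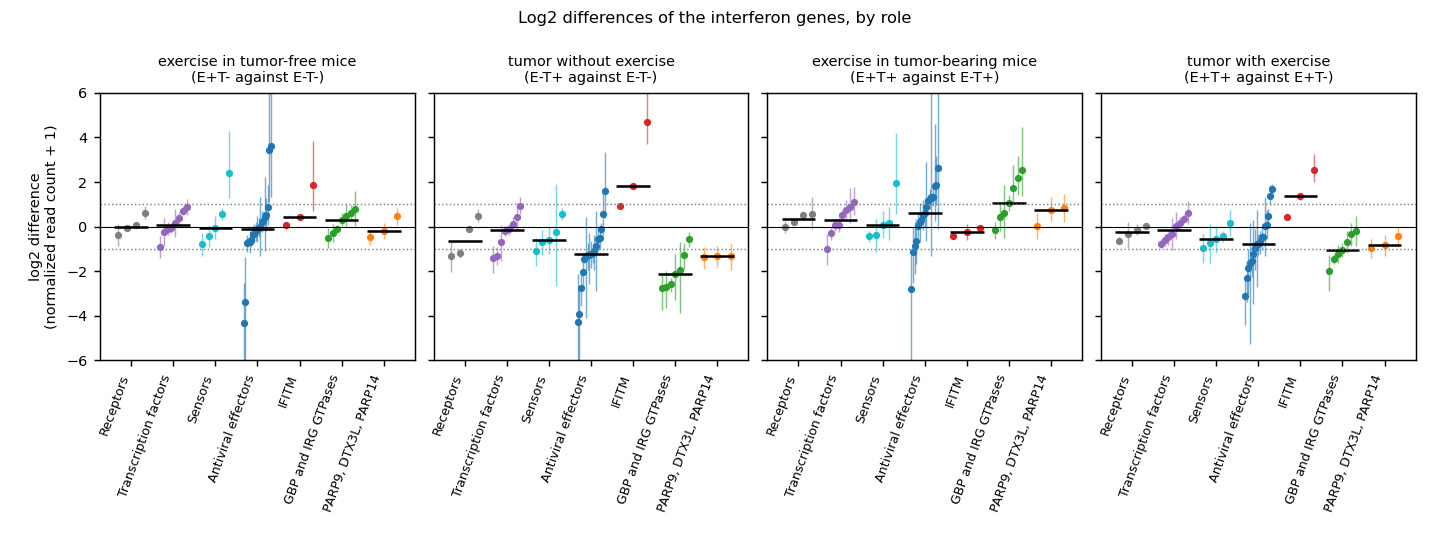
Log2 difference of each interferon gene (points) with its 95% counting interval (vertical lines, cut at the axis limits of -6 and 6), by function, in the 4 comparisons; the black bar is the group's median, and dotted lines mark 2-fold. In the tumor comparison without exercise the GTPases have a median of -2.10 and the IFITM genes of 1.81.

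Parp9, a mono-ADP-ribosyltransferase partner, Dtx3l, its ubiquitin ligase partner, and Parp14, a neighbouring family member, were lower in cancer control by close to the same amount. Parp9 had 147, 105, 57.9 and 58.6 normalized reads, a difference of -1.33 (-1.82 to -0.88). Dtx3l had 95.7, 132, 37.5 and 67.2, a difference of -1.33 (-1.96 to -0.78). Parp14 had 130, 113, 49.3 and 84.5, a difference of -1.38 (-1.92 to -0.90). With exercise the tumor differences were -0.84, -0.97 and -0.41 and none reached 2-fold. Cancer exercise exceeded cancer control for Dtx3l by 0.82 (0.22 to 1.48) and for Parp14 by 0.77 (0.23 to 1.34), while Parp9 was at one level in both.

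**Figure D4:**
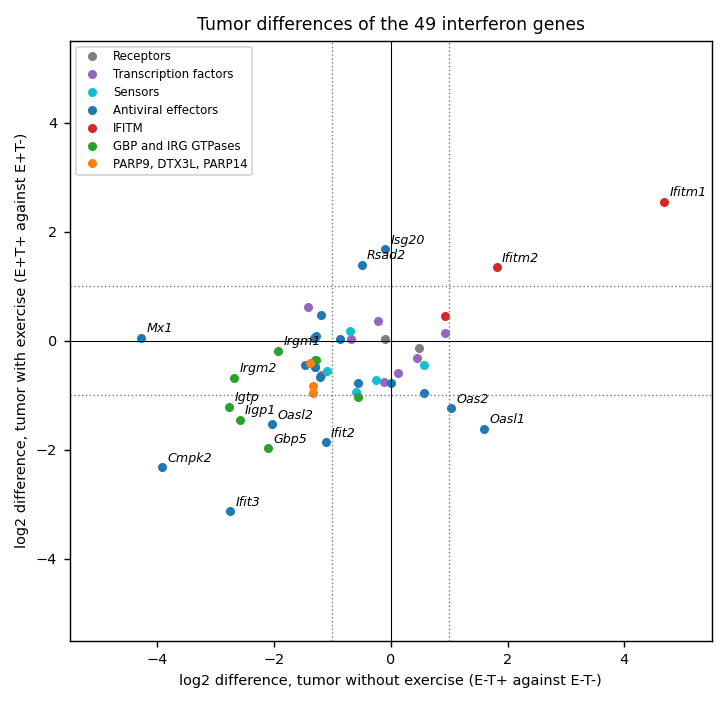
Log2 difference with the tumor in exercised mice (vertical axis, cancer exercise against normal exercise) against that in unexercised mice (horizontal axis, cancer control against normal control) for the 49 genes, coloured by function, genes under the minimum included; dotted lines mark 2-fold. Ifitm1 and Ifitm2 lie beyond 2-fold at upper right, Ifit3, Cmpk2, Gbp5 and Igtp among others at lower left, and Oasl1, at 1.59 and -1.62, at lower right.

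The pathway around these genes was read from 4 lists of further genes. None of the 21 interferon genes themselves, the type I, II and III ligands in the files, had a read in any library, which allows each a share of up to 2.27e-05% to 2.82e-05% of a library's reads. Of 13 genes of JAK-STAT signalling and its inhibitors, 2 were higher (15.4%, where 20.9% of all genes were) and 4 lower (30.8%, where 24.2% were) in cancer control than in normal control, and 2 were higher (15.4%, all genes 13.9%) and 1 lower (7.69%, all genes 16.3%) in cancer exercise than in normal exercise. Jak1 (3058, 2754, 2820 and 1995), Jak2 (351, 238, 217 and 371) and Tyk2 (89.3, 47.8, 49.3 and 47.7), the receptor-bound kinases, stayed within 2-fold throughout. Usp18, which removes Isg15 and shuts off the type I receptor, had 26.6, 30.2, 5.41 and 10.9 and was low in both tumor-bearing libraries, at -2.10 (-4.05 to -0.90) and -1.39.

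The inhibitors had no common order. Socs3, an inhibitor driven mainly by interleukin 6 type cytokines, had 161, 164, 859 and 945 normalized reads, higher with the tumor by 2.41 (2.17 to 2.68) without and 2.52 with exercise. Cish, a growth hormone and cytokine target that inhibits STAT5 signalling, was highest in normal control (1341, 50.1, 296 and 523). Socs1, the chief inhibitor of interferon gamma signalling, had 30.8, 13.7, 23.6 and 11.96, lower in both exercised libraries. Of the phosphatases, Ptpn6 (SHP-1) had 55.3, 62.5, 16.1 and 42.3, Ptpn2 had 166, 233, 409 and 256, Ptpn1 had 434, 471, 621 and 515, and Ptpn11 (SHP-2) had 848, 788, 1166 and 613.

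Of 12 sensing adaptors and kinases with reads, 4 were higher (33.3%, where 20.9% of all genes were) and 3 lower (25%, where 24.2% were) in cancer control than in normal control, and 4 higher (33.3%, all genes 13.9%) and 2 lower (16.7%, all genes 16.3%) in cancer exercise than in normal exercise. Tlr7, the endosomal sensor of single-stranded RNA, had 5.37, 7.13, 81.3 and 34.7 normalized reads and was higher in both tumor-bearing libraries, as were Tbk1 (55.3, 45.3, 153 and 129), the kinase of Irf3, and Ticam1 (11.8, 17.7, 39.6 and 46.5), the adaptor of Tlr3. Tlr3 itself, the endosomal sensor of double-stranded RNA, was lowest in cancer control (61.7, 51.1, 17.2 and 76.9). Dhx58, the RIG-I-like regulator LGP2, had 24, 6, 0 and 2 reads, at least 7.95-fold lower in cancer control than in normal control. Tmem173 (STING) was highest in cancer exercise (39.4, 76.98, 54.6 and 146). Myd88 had 103, 59.1, 136 and 168, Mavs 373, 322, 396 and 567, Tank 160, 216, 366 and 226, Traf3 179, 197, 238 and 81.3, and Ikbke 11.7, 21.3, 4.33 and 3.30.

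Beyond the 49, 61 other interferon-stimulated genes were in the files. Of these, 21 of 60 tested were lower (35%, where 24.2% of all genes were) and 11 higher (18.3%, where 20.9% were) in cancer control than in normal control, with a median of -0.65. In cancer exercise against normal exercise 24 of 58 were lower (41.4%, where 16.3% of all genes were) and 3 higher (5.17%, where 13.9% were), with a median of -0.45. Exercise in tumor-bearing mice had 9 of 57 higher and 11 lower, with a median of -0.14, shares of 15.8% and 19.3% near the 15.6% and 15.1% of all genes. In tumor-free mice 5 of 57 were higher (8.77%, where 9.44% of all genes were) and 7 lower (12.3%, where 12.1% were) with exercise.

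Several of the largest differences in that list were in relatives of the 49. Tgtp1 and Tgtp2, IRG genes that are near copies of each other, had 124, 231, 19.3 and 28.2 and 117, 224, 15.1 and 30.4 normalized reads, low in both tumor-bearing libraries. Ifi27l2a, a relative of Ifi27, had 1941, 616, 231 and 195, tumor differences of -3.06 (-3.28 to -2.87) without and -1.65 (-1.90 to -1.42) with exercise. Uba7, the enzyme that activates Isg15 for conjugation, had 95.7, 64.1, 6.48 and 49.8, lowest in cancer control, with tumor differences of -3.69 without and -0.36 with exercise. Gbp6 (225, 78.6, 110 and 27.2) and Gbp10 (124, 30.7, 61.0 and 18.5) were lower in each exercised library than in its unexercised counterpart, while Gbp9 had 44.6, 14.5, 5.41 and 16.3. Trim21, an antibody receptor in the cytosol, had 15.97, 44.9, 4.34 and 13.04, Parp10 had 48.9, 59.2, 20.4 and 79.0, and Apobec3, a cytidine deaminase against retroviruses, had 34.1, 38.9, 20.4 and 76.8.

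Other genes of the list were high in cancer control or in an exercised library. Ifi30, a lysosomal thiol reductase of antigen-presenting cells, had 673, 2047, 4129 and 2733 normalized reads, with tumor differences of 2.61 (2.50 to 2.74) without and 0.42 (0.34 to 0.50) with exercise, and exercise in tumor-free mice gave 1.60 (1.48 to 1.73). Irf4, a lymphoid and myeloid factor, was high in cancer control alone (37.3, 39.6, 216 and 22.8), as was Trafd1, a negative regulator of innate signalling (280, 448, 1229 and 510): with exercise their tumor differences were -0.77 and 0.19. Slfn1 (6.43, 10.4, 28.9 and 23.8) and Slfn2 (66.0, 38.8, 93.2 and 129), genes of lymphoid and myeloid cells, were higher in both tumor-bearing libraries than in the tumor-free ones. Ifi205 (351, 235, 220 and 463) was highest in cancer exercise, and Helz2 (18.1, 56.2, 22.5 and 16.3) in normal exercise.

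Summed levels of some other cell markers were also lower in the tumor-bearing libraries. The 8 dendritic cell markers summed to 13.8, 15.8, 6.05 and 6.12 CPM, and of these Siglech, a marker of plasmacytoid dendritic cells, had 59, 107, 9 and 5 reads and Cd209a 43, 44, 11 and 12, while Itgax was at 0 in both tumor-bearing libraries. Others went the other way: of 6 dendritic markers at the minimum, 4 were lower and 2 higher with the tumor without exercise. Among exercised mice 5 of 7 were lower and 2 higher. Flt3 and Ccr7 had reads only in the exercised libraries. The 10 fibroblast markers summed to 11640, 6583, 4048 and 4600 CPM and the 10 muscle fibre markers to 103300, 80050, 60080 and 65910. At any size, all 10 fibroblast markers were lower with the tumor in both tumor comparisons. Muscle fibre markers had no common direction: 6 were lower and 4 higher with the tumor without exercise, and 4 lower and 6 higher among exercised mice. The 10 endothelial markers summed to 374, 494, 430 and 510, the 13 T and NK cell markers to 2.22, 4.79, 4.00 and 1.70, and the 6 B and plasma cell markers to 1.11, 2.89, 0.0931 and 0.471. The 9 red cell markers summed to 21800, 4573, 20480 and 43930 CPM, lowest in normal exercise. Among exercised mice 8 of 9 were at least 2-fold higher with the tumor (88.9%, where 13.9% of all genes were) and 1 lower. Without exercise 1 of 8 tested was higher (12.5%, where 20.9% of all genes were) and 1 lower. In tumor-bearing mice 9 of 9 were higher with exercise (100%, where 15.6% of all genes were). The part of any of these cells in the interferon gene levels was not tested.

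Members with and without the response element core differed in the same direction. In the tumor comparison without exercise, 11 of 19 members with the core were at least 2-fold lower (57.9%, median -1.22) and 9 of 22 without it (40.9%, median -0.58), while among all other genes the shares were 24.4% of 390 with it and 23.6% of 10675 without it. In the tumor comparison with exercise, the shares were 4 of 18 (22.2%) and 4 of 22 (18.2%), near the 21.1% and 15.6% of all other genes with and without it. In the exercise comparison of tumor-bearing mice, 5 of 18 with the core (27.8%) and 4 of 22 without it (18.2%) were at least 2-fold higher, against 14.8% and 15.2% of all other genes. Cmpk2, Oasl2 and Ifi44, which were lower in cancer control, held neither motif in these windows, and Ifitm2, which was higher, held the core.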

How the data were processed

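Gastrocnemius libraries of 4 mouse groups, 1 each, were grouped by sample title. According to the methods and the submitters' processing notes, the authors aligned 3′ reads to mm10 with Bowtie2, took counts over genes with bedtools and normalized these with edgeR. The annotation, versions, strand and the handling of duplicates and of reads matching several genes are not given in the sources used here. Each deposited value is a log2 value, made from the normalized count after adding 1. A gene with no reads can be listed above 0, so the reads were rebuilt. A negative binomial quantile adjustment with 1 scaling factor per library and a dispersion of 0.339 returned 100% of the values within 0.0006 on the log2 scale, and 93.8% to 95.5% per library matched a single read count, so that those above 1441 reads are approximate. In data simulated with counting error only, for the tumor comparison without exercise over 23282 genes, 100% of genes changed 4-fold were called. The changed genes were drawn from those averaging 16 or more reads. Lower genes, 2-fold changes and variation among animals were therefore not covered.

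Differences were taken between deposited log2 values (pseudocount 1) in 4 comparisons. The threshold was 2-fold, where 1 of the libraries had 4 or more normalized reads. Summed levels of lists (CPM) are relative to the library size with TMM scaling (trimmed mean of M values), and the floor for genes without reads was 3 reads per library. The plan assumed no test, and none was run with 1 library per group. Named members were those with 16 or more normalized reads in 1 library (45 of 49, the other 4 by reads), with Jak1, Jak2, Tyk2, Usp18 and the 3 largest differences per pathway list and direction. An item that this rule also names is not reported here. The members and the lists were chosen with earlier results of these data known. Alternatives covered scaling, pseudocount, minimum and fold. Python 3.11.15, pandas 2.3.3 and scipy 1.17.1 were used.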

Additional observations from a re-analysis of the deposited data

Results flagged for a closer look

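Oasl1 was the member whose tumor differences passed 2-fold in opposite directions: 1.59 in unexercised and -1.62 in exercised mice, a difference of -3.21 on the log2 scale. Without exercise it had 6 reads in the tumor-free and 20 in the tumor-bearing library, and with exercise 11 and 2. In exercised mice its counting interval was -5.26 to 0.15, which includes 0, and it reached the minimum only through the tumor-free library. With 1 library per group the difference was not tested.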

How the results depend on the processing

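Of 82 recomputed member counts, 62 stayed within 1.5 times their value. The following did not, and the cause was not tested except where a stricter or looser threshold by its construction keeps fewer or more genes. In tumor-free mice, the members higher with exercise (4) were 2 at a minimum of 16, 2 at a minimum of 4 in both libraries and 10 at 1.5-fold, and those lower (2) were 1, 0 and 8. For the tumor without exercise, higher members (3) were 5 at 1.5-fold and 1 at 4-fold, lower members (25) were 8 at 4-fold, and with cancer exercise in place of cancer control, an alternative chosen after seeing the data, 7 were higher and 11 lower. For exercise in tumor-bearing mice, higher members (13) were 20 at 1.5-fold and 3 at 4-fold, and lower members (2) were 1 at pseudocount 4, 1 at a minimum of 4 in both libraries, 5 at 1.5-fold and 1 at 4-fold. For the tumor with exercise, higher members (4) were 1 at 4-fold, and lower members (10) were 22 at 1.5-fold and 2 at 4-fold. Of 315 recomputed differences of called members, 0 reversed and 2 left the counting interval: Mx1 in tumor-free mice at pseudocount 4 (-2.52) and Ifitm2 with the tumor in exercised mice under total count scaling (1.19). Total count scaling moved the median of all genes from -0.01 to 0.15 for exercise in tumor-free mice and from -0.03 to -0.18 for the tumor with exercise. No paired analysis was possible because each group has 1 library. Low read numbers limit Mx1, Mx2, Oas1a, Oas2, Oas3, Oasl1, Zbp1 and the lowest values of Cmpk2, Irgm1, Ifitm1 and Ifit3. Whether a library is 1 animal or a pool was not settled, so no difference can be separated from variation among animals.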
